A study of Mus musculus with 19 samples.

Results

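The genes described here encode molecular chaperones and the unfolded protein response (UPR). They were chosen by name from the gene table, as protein-coding rows whose symbol began with Hsp90, Hspa, Hspb, Hspd, Hspe, Hsph, Dnaja, Dnajb, Dnajc or Pdia and a number, or was 1 of 17 single names, namely Atf4, Atf6, Ddit3, Xbp1, Ern1, Eif2ak3, Hyou1, Calr, Canx, Sel1l, Edem1, Herpud1, Creld2, Manf, Sdf2l1, Trib3 and Hsf1. The rule took 95 of 54532 rows, which stand for 94 genes because Ddit3 has a second row, at 0 counts in every library. RNA was sequenced from the whole obstructed left kidney of 19 male C57BL/6J mice, 8 to 9 weeks old, 12 days after unilateral ureteral obstruction (UUO), in which tying off 1 ureter injures and scars the kidney. Wild-type (WT) mice and mice lacking CD5L (CD5L KO), a secreted protein made mainly by macrophages, received a daily intraperitoneal injection of recombinant mouse CD5L (rCD5L, 0.5 mg per mouse) or of PBS. The groups were WT PBS (n = 5), WT rCD5L (n = 5), CD5L KO PBS (n = 4) and CD5L KO rCD5L (n = 5), and every kidney was obstructed, so obstruction itself has no comparison here.

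Chaperones bind proteins that are not yet folded or have lost their fold. HSP70 proteins do this with J proteins, which deliver the client and trigger ATP hydrolysis, and heat shock factor 1 (HSF1) raises many of the cytosolic ones when misfolded protein builds up. In the endoplasmic reticulum (ER), where secreted and membrane proteins fold, the sensors PERK (Eif2ak3), IRE1 (Ern1) and ATF6 respond to unfolded protein by slowing translation, splicing Xbp1 mRNA and releasing a transcription factor, which together raise ER chaperones, disulfide isomerases and ER-associated degradation (ERAD). Tubular epithelium, rich in mitochondria and in membrane transporters, depends on both the ER and the mitochondrial sets. ATF6 activity, IRE1 splicing of Xbp1 and PERK activity take place on protein or by splicing, so gene-level counts do not measure them.

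The ER stress response element, to which ATF6 binds with the factor NF-Y, is spelled here as CCAAT, 9 bases of any kind and CCACG, and was searched on both strands in RefSeq promoter windows (GRCm38.p6) from 250 bases before to 50 after the start of a gene. Windows were found for 76 of the 94 genes. The element was present in 7 of them (9.21%), against 0.137% of 27025 genes with a window. These 7 stretches are shown because they mark the ER genes that share the element, and their measured levels can be set side by side. Capitals mark the element, on either strand.

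Hspa5, chr2:34771990-34772059, plus strand: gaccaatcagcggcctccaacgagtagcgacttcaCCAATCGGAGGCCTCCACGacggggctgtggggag
Hsp90b1, chr10:86705523-86705666, minus strand: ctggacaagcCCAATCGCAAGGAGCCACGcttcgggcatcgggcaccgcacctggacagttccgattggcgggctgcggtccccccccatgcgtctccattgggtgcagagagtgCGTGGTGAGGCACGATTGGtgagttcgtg
Pdia6, chr12:17266474-17266528, plus strand: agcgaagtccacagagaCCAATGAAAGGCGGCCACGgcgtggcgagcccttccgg
Calr, chr8:84847057-84847111, minus strand: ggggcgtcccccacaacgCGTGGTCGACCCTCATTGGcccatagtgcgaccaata
Canx, chr11:50325782-50325836, minus strand: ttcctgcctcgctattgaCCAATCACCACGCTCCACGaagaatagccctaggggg
Creld2, chr15:88819502-88819556, plus strand: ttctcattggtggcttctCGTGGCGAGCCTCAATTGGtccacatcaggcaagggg
Dnajc3, chr14:118937809-118937863, plus strand: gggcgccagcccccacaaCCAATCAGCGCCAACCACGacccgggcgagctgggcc

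A heat shock element of 3 units (GAA, 2 bases, TTC, 2 bases, GAA, or its reverse complement), the kind of site HSF1 binds, was present in the windows of Dnajb6, Hspd1, Hspe1 and Hsph1, against 0.662% of all genes with a window. Hspd1 and Hspe1, the mitochondrial chaperonin HSP60 and its lid HSP10, lie head to head and their windows hold the same element. It is shown from the Hspe1 side, with 2 overlapping matches in capitals, because the levels of this pair are compared below.

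Hspe1, chr1:55088033-55088102, plus strand: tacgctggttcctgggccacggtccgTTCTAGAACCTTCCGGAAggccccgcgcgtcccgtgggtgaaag

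An 8-base UPR element (TGACG followed by TGG) was found only in the window of Dnajc25, against 0.714% of all genes, and the 8-base element TGATG, 1 base of any kind, AA, to which ATF4 and C/EBP factors bind, in those of Herpud1, Hspa14 and Trib3, against 4.51%. A match is a description of letters, and none of these windows was tested for binding.

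Library totals ran from 17917491 to 23847090 counts. Cd5l itself was at 0 counts in all 9 CD5L KO kidneys and at 3 to 15 counts in each of the 10 WT kidneys, as the genotype labels say. The protein itself was not measured here. Values for single kidneys are CPM, counts brought to a common library total and scaled by TMM factors, which correct for library composition. A fold change is on the log2 scale with its standard error (SE), and a gene was called at a Benjamini-Hochberg adjusted p under 0.05 over all genes tested in edgeR's quasi-likelihood test. Kidneys 3 and 4 of the CD5L KO rCD5L group stood apart from the rest. Kidney 4 held 2172 CPM of the proximal tubule gene Lrp2, where the other 18 kidneys held 221 to 421, and 36953 CPM of Kap, another proximal tubule gene, where the next highest held 6657. Kidney 3 held 6943 CPM of the ribosomal RNA row CT010467.1, and its ribosomal rows were the highest of all kidneys. Of the 88 members that passed the filter on low counts in some comparison, 49 were outside the range of the 17 other kidneys on the high side in kidney 4 and 28 in kidney 3, and 11 and 25 on the low side. The main results of this group are also given without these kidneys. Nothing in the labels says that kidneys with the same replicate number were paired, and the p-values measure the spread between mice.

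On a scale per length (FPKM, fragments relative to gene length and library total), the highest means over the 19 kidneys were those of Hsp90ab1, the constitutive cytosolic HSP90, at 395 FPKM, Hspa8, the constitutive HSP70, at 362 FPKM, and Calr, a lectin chaperone of the ER, at 218 FPKM. Hspa1a and Hspa1b, the stress-inducible HSP70 genes, stood at 5.34 and 18.6 FPKM. These 2 genes are near-identical copies, and how reads that fit both were counted is not given in the sources used here. The sensors were low, with 7.04 FPKM for Atf6, 8.62 for Eif2ak3 and 3.91 for Ern1, while the factors Xbp1 and Atf4 stood at 60.2 and 47.4 FPKM. Dnajc5g and the second Ddit3 row were at 0 counts in every kidney, and Dnajb7, Dnajb8, Dnajc5b, Hspb3 and Pdia2 did not pass the filter on low counts in any comparison. Hspb9 passed the filter on low counts only in the 2 fits that include it, so 87 members were tested in 3 of the pairwise comparisons and 88 in the other one and in the interaction.

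The comparison of CD5L KO with WT, both under PBS, asks what the loss of the endogenous protein changes. Of 87 members tested, 13 were called, 6 higher and 7 lower in CD5L KO, which is 14.9% of the members against 10.5% of all 17579 genes tested. The 6 higher and 7 lower stand against 5.13% and 5.40% of all genes, and the median fold change over the members was -0.0061, against -0.0046 over all genes. Calls went both ways in the ER and in mitochondria, and the largest of the called changes, that of Dnajc15, was 0.42 on the log2 scale. With 1 of the 9 kidneys left out at a time, 6 to 12 members (6.90% to 13.8%) were called, some of them not among the 13. Dnajb5, Dnajc15, Eif2ak3 and Hspe1 were called each time. The share of all genes called in these fits is not given here. At an unadjusted p under 0.05 these fits gave 24.1% to 29.9% of the members, against 22.7% to 28.1% of all genes. A fit with 1 spread shared by all 19 kidneys called none, and 0.0650% of all genes. DESeq2 called 18 members and 16.9% of all genes. The groups did not overlap for 15 of the 87 members (17.2%), against 14.1% of all genes. The median length was 7099 bases for the members called lower, 3838 for those called higher and 3912 for all members tested. Over all genes the medians were 6732 bases for those called lower, 2563 for those called higher and 3808 for those tested, and the rank correlation between length and fold change was -0.28 across the 17579 genes, which are not independent of each other. The row CT010467.1 was at 683 to 3091 CPM in the CD5L KO PBS kidneys and at 296 to 588 in the WT PBS kidneys, without overlap. The part of this RNA in the calls was not tested. In a fit with a length term, which called 6.88% of all genes, 7 of the 13 were still called (Dnajb5, Dnajc15, Eif2ak3, Herpud1, Hsp90aa1, Hspa13 and Pdia6). Among the calls lost in it, the fold change of Hspb1 was 0.21 (adjusted p = 0.24) and that of Dnajc11 -0.15 (adjusted p = 0.11), each more than 1.5 times smaller than without the term. Hspe1 was also lost in it, at 0.21 (adjusted p = 0.054).

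**Figure D1:**
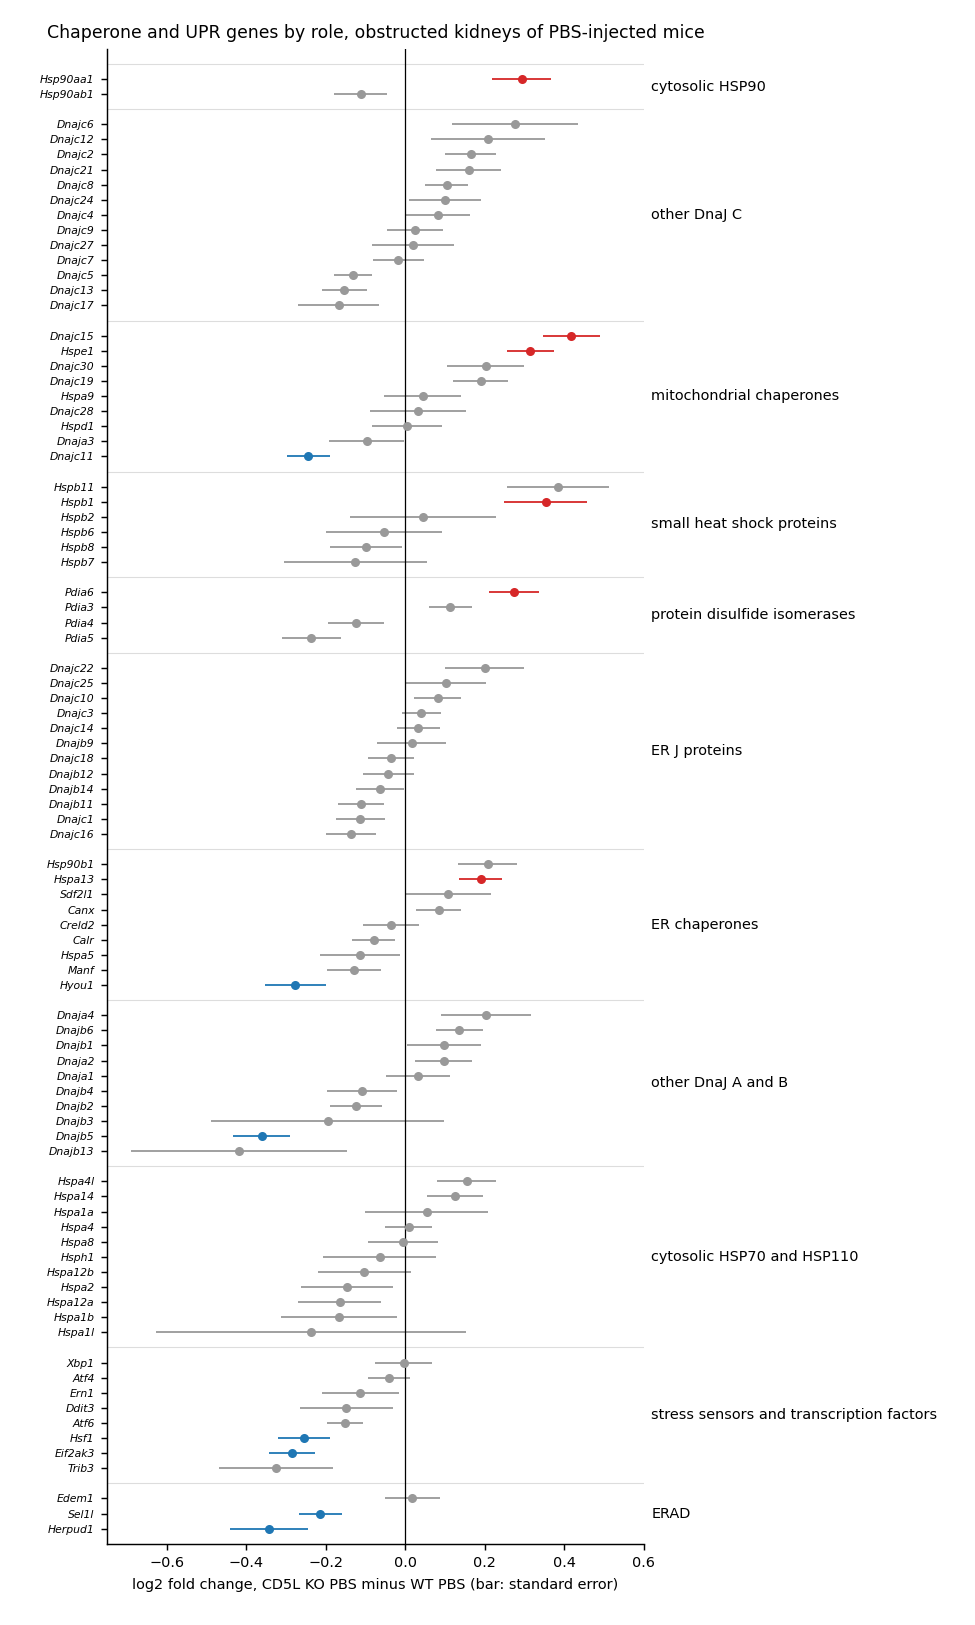
The log2 fold change of each of the 87 members tested, CD5L KO PBS minus WT PBS, is drawn as a point with its standard error as a bar, with genes grouped by role on the y axis. Red points were called higher (6 genes), blue points called lower (7 genes) and grey points were not called; all 8 sensors and transcription factors lie at or to the left of 0, and the other groups straddle it.

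The sensors and transcription factors, with the pseudokinase Trib3, a target of ATF4, were the only group of more than 3 genes with every fitted value below 0 in CD5L KO, and 2 of the 8 were called. Eif2ak3, which encodes PERK (chr6:70844515-70905245), was at 50.8, 56.3, 54.4 and 57.9 CPM in CD5L KO kidneys 1 to 4 and at 70.5, 63.1, 63.4, 68.2 and 67.1 in the 5 WT kidneys. All 4 CD5L KO values lay under the lowest WT value, and the gene was lower by -0.28 ± 0.06 (adjusted p = 0.011). Hsf1, the heat shock factor (chr15:76477422-76501913), was at 26.8, 30.4, 27.6 and 27.6 CPM against 31.9, 33.9, 34.4, 30.8 and 35.7 in WT kidneys, lower by -0.25 ± 0.07 (adjusted p = 0.03). The groups came close, at 30.4 and 30.8 CPM, but did not overlap. Atf6 was at 74.4, 72.7, 75.6 and 74.3 CPM against 82.6, 81.6, 85.3, 78.6 and 81.7, also without overlap, and missed the threshold in edgeR (-0.15 ± 0.05, adjusted p = 0.054), while DESeq2 called it (adjusted p = 0.032). Ern1 (-0.11 ± 0.10), Ddit3, which encodes CHOP (-0.15 ± 0.12), and Trib3 (-0.32 ± 0.14) were not called, and their kidneys overlapped between genotypes. Atf4 (-0.04 ± 0.05) differed by less than its error, as did Xbp1, at 209 to 267 CPM in CD5L KO and 213 to 243 in WT.

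ER chaperones moved in both directions. Hyou1, an ER HSP110-like chaperone that helps BiP release its clients, was at 84.4, 83.0, 89.8 and 95.3 CPM in CD5L KO and at 89.0, 106, 111, 108 and 116 in WT, lower by -0.28 ± 0.08 (adjusted p = 0.038). The lowest WT kidney, at 89.0 CPM, lay within the CD5L KO range. Hspa13, a microsomal ATPase of the HSP70 family, was higher, with 71.1, 64.1, 65.7 and 67.0 CPM against 57.3, 59.0, 58.1, 55.2 and 62.5 (0.19 ± 0.05, adjusted p = 0.043), and its groups did not overlap. Hspa5, which encodes BiP, the main ER HSP70, was at 597, 609, 473 and 606 CPM against 572, 592, 633, 539.5 and 738 and was not called (-0.11 ± 0.10, adjusted p = 0.52). Hsp90b1, the ER HSP90 known as GRP94, had 466, 453, 392 and 478 CPM against 395, 387, 386, 343 and 415, with only the third CD5L KO kidney within the WT range, and missed the threshold in edgeR (0.21 ± 0.07, adjusted p = 0.092) but not in DESeq2 (adjusted p = 0.038). The lectin chaperones Calr (-0.08 ± 0.05) and Canx (0.08 ± 0.06), and Manf, Creld2 and Sdf2l1, secreted or ER-resident proteins of the UPR, were not called. Of the 7 genes with the ER stress response element printed above, Pdia6 was the single one called, and their fold changes ran from -0.11 (Hspa5) to 0.27 (Pdia6).

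Among the protein disulfide isomerases, which form and shuffle disulfide bonds in ER clients, Pdia6 rose in CD5L KO, to 410.4, 415, 359 and 395 CPM against 338, 333, 308, 303 and 343 in WT (0.27 ± 0.06, adjusted p = 0.019), and every CD5L KO kidney was above every WT kidney. Pdia6 overlaps the gene Atp6v1c2, as Eif2ak3, Hspa13 and Herpud1 overlap other genes. The strand setting of the counting is not given in the sources used here. Pdia3, the partner of calnexin and calreticulin, also had groups that did not overlap, with 648 to 693 CPM against 568 to 642, but was not called (0.11 ± 0.05, adjusted p = 0.21). Pdia4 (-0.12 ± 0.07) and Pdia5 (-0.24 ± 0.08, adjusted p = 0.066) pointed the other way without being called in edgeR, while DESeq2 called Pdia5 (adjusted p = 0.043).

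Of the 3 ERAD genes 2 were called, both lower. Sel1l, the adaptor that holds the HRD1 ubiquitin ligase complex together, was at 106, 113, 98.2 and 112 CPM in CD5L KO against 123, 125, 125, 126 and 120.2 in WT, lower by -0.21 ± 0.05 (adjusted p = 0.027), with no overlap. Herpud1, which links HRD1 to other membrane factors, was at 139.7, 171, 199 and 203 CPM against 203, 221, 244, 226 and 232 (-0.34 ± 0.10, adjusted p = 0.046), and the highest CD5L KO kidney touched the lowest WT kidney. Edem1, the mannosidase-like factor that takes glycoproteins out of the folding cycle, did not differ beyond its error (0.02 ± 0.07). None of the 12 J proteins placed with the ER was called, and Dnajb9, an IRE1-dependent J protein of BiP, was at 69.2 to 96.8 CPM in CD5L KO and 73.4 to 82.9 in WT.

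Mitochondrial chaperones were the group with the most calls by number, 3 of 9, 2 higher and 1 lower, where 10.5% of all genes were called. By share the ERAD genes stood higher, with 2 of 3. Dnajc15, a J protein of the inner-membrane protein import motor that is also known to restrain complex I, was at 47.7, 47.7, 45.4 and 44.9 CPM in CD5L KO against 33.4, 37.0, 38.4, 29.8 and 34.2 in WT, higher by 0.42 ± 0.07 (adjusted p = 0.0067). All 4 CD5L KO kidneys lay close together and above the highest WT kidney. Hspe1 was at 129.6, 122, 122 and 120.0 CPM against 92.2, 93.5, 111, 100.1 and 97.5, also without overlap (0.32 ± 0.06, adjusted p = 0.0087). In the edgeR fit with the length term Hspe1 was not called (0.21, adjusted p = 0.054). Hspd1, its partner across the head-to-head promoter printed above, was at 216, 232, 269 and 264 CPM against 212, 235, 279, 230.2 and 259 and did not differ beyond its error (0.01 ± 0.09, adjusted p = 0.98). The 2 genes overlap by 112 bases at their starts, and the table holds 6 pseudogene rows of Hspe1 and 5 of Hspd1, so reads that fit several copies could be split between them. The interaction of gene and genotype within this pair was not tested. Dnajc11, a J protein of the outer membrane that associates with the cristae-organizing complex, was lower, at 54.6, 56.0, 56.1 and 51.3 CPM against 62.9, 62.6, 68.9, 60.5 and 66.1 (-0.24 ± 0.05, adjusted p = 0.017), with no overlap. Hspa9, the mitochondrial HSP70, and its J protein Dnaja3 were not called (0.04 ± 0.10 and -0.10 ± 0.10).

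Of the cytosolic HSP90 pair 1 gene was called, and the difference between both was not tested. Hsp90aa1, the inducible form, was at 515, 522, 581 and 607 CPM in CD5L KO against 433, 461, 463, 401 and 500.3 in WT (0.29 ± 0.07, adjusted p = 0.027), without overlap, while Hsp90ab1 was at 1296, 1178, 1443 and 1379 CPM against 1347, 1421, 1439, 1405 and 1505 (-0.11 ± 0.07, adjusted p = 0.31). None of the 11 cytosolic HSP70 and HSP110 genes was called, and Hspa1a, Hspa1b, Hspa8 and Hsph1, the HSP110 exchange factor, differed by little more than their SE or by less (0.05 ± 0.15, -0.17 ± 0.15, -0.01 ± 0.09 and -0.06 ± 0.14). Hspb1, the small heat shock protein HSP27, an actin-protecting chaperone raised in injured tubules, was at 201, 195, 246 and 224 CPM against 190.0, 182, 184, 136 and 151 (0.35 ± 0.10, adjusted p = 0.048), with the groups 195 and 190.0 CPM apart at their nearest. Dnajb5, a cytosolic J protein of HSP70, was at 16.6, 17.0, 17.3 and 16.3 CPM against 21.0, 23.7, 22.4, 20.0 and 20.3 (-0.36 ± 0.07, adjusted p = 0.011). Its 4 CD5L KO kidneys lay close together, all below the WT kidneys. Dnajb1, the HSF1-driven J protein of HSP70, was not called (0.10 ± 0.09).

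**Figure D2:**
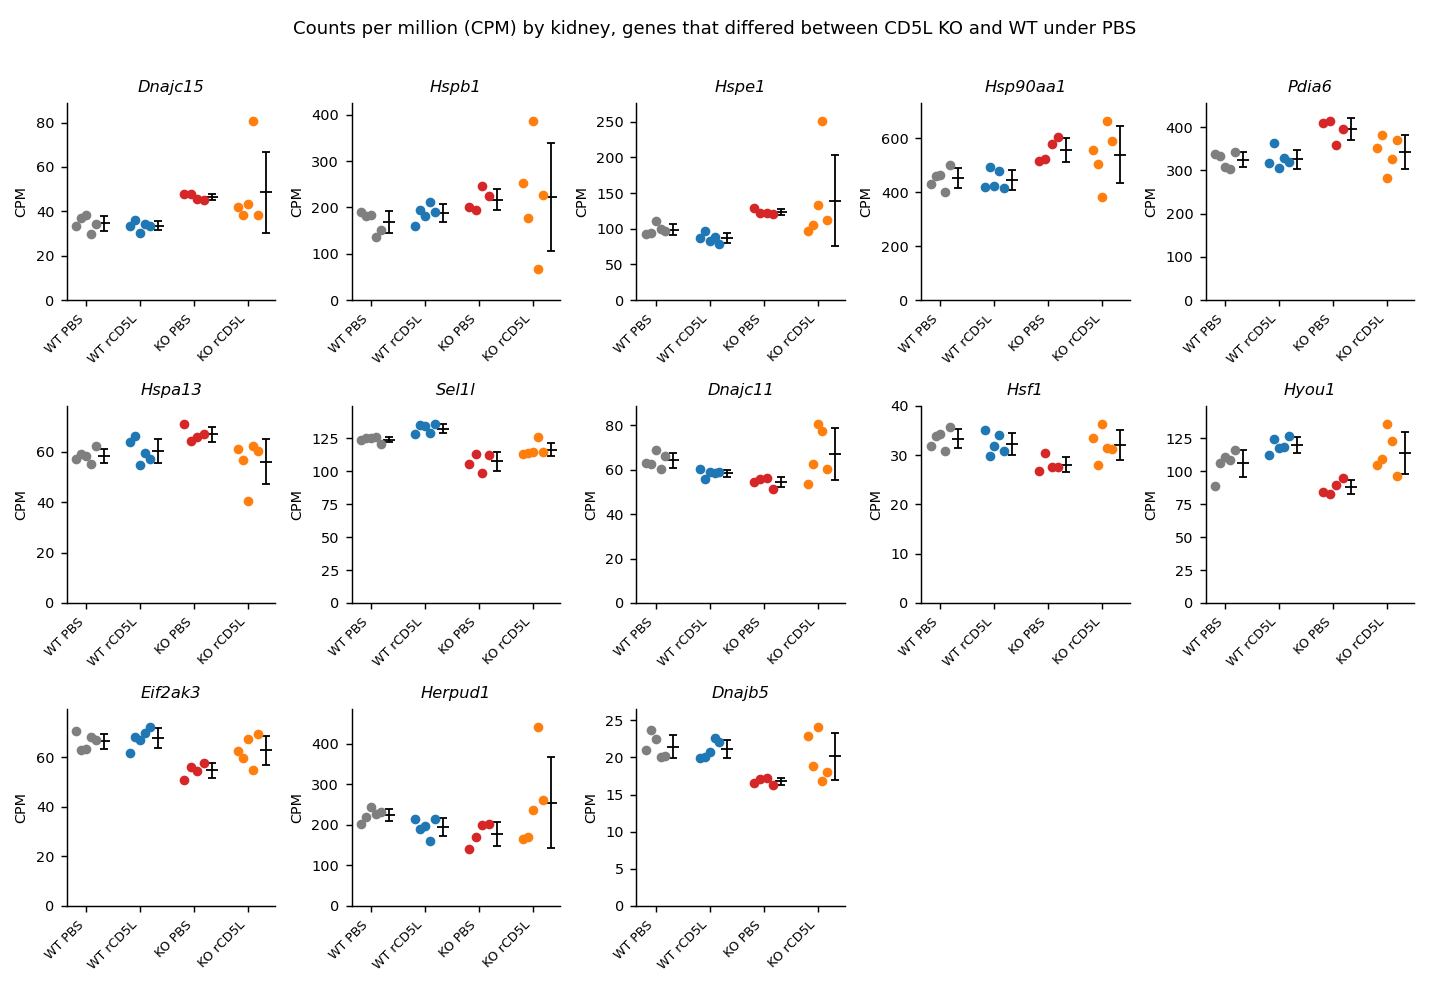
CPM (y axis, from 0) of the 13 members called between CD5L KO PBS and WT PBS is drawn for every kidney (grey WT PBS, blue WT rCD5L, red CD5L KO PBS, orange CD5L KO rCD5L), with the mean and SD of each group as a black bar. In the 2 PBS groups the red and grey points do not overlap for 11 of the 13 genes (all but Hyou1 and Herpud1) and lie at 44.9 to 47.7 against 29.8 to 38.4 CPM for Dnajc15, while the orange CD5L KO rCD5L points spread far more, with kidney 4 at 80.8 CPM of Dnajc15.

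Genes of the same pathways were also called outside the rule, and the shares called in each list below stand against the 10.5% of all genes. Of 33 ATF6 and XBP1 targets tested, 2 were called higher and 5 lower (21.2%). Outside the rule these were Selenok, an ER selenoprotein (131 ± 4.2 against 108 ± 4.0 CPM, SD), and, lower, Sec61a1, the pore of the ER translocon (-0.21 ± 0.05), and Txndc5, a disulfide isomerase (-0.20 ± 0.05). Of 26 ATF4 and CHOP targets, Ppp1r15a alone was called (3.85%), lower by -0.46 ± 0.08 (adjusted p = 0.008). It encodes GADD34, which ends the translation block that PERK sets. Of 8 subunits of the cytosolic chaperonin CCT, 7 were fitted higher and 2 called (25.0%), Cct4 (0.22 ± 0.06) and Cct5 (0.24 ± 0.05). Of 27 co-chaperones of HSP70 and HSP90, Sugt1 (0.27 ± 0.06) and Bag1 (0.27 ± 0.08) were called, both higher (7.41%). Of 12 mitochondrial proteases and import chaperones 2 were called, both higher (16.7%). These were Yme1l1, an inner-membrane protease (0.25 ± 0.05), and Grpel1, the exchange factor of Hspa9 (0.19 ± 0.05). Of 26 HSF1 targets, 3 were called (11.5%), a share near that of all genes. They were the members Hsp90aa1, Hspb1 and Hspe1, all described above.

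Markers of other cell types moved with genotype in the same comparison. Of 8 fibroblast and myofibroblast markers 5 were called lower in CD5L KO (median -0.48), with a summed level of 3035 to 4217 CPM in CD5L KO and 4255 to 6556 in WT, and of 7 endothelial markers 3 were called lower, with 539 to 607 against 630 to 723 CPM. None of the 14 proximal tubule markers was called, and their sums spanned 4903 to 10346 CPM in CD5L KO and 5086 to 10342 in WT. Macrophage and myeloid markers gave 1 call each way, and podocyte markers 1 lower. In whole-kidney RNA, fewer cells of a type and less RNA per cell cannot be told apart, and the part of these cell types in the 13 calls was not tested.

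The injection of rCD5L into CD5L KO mice asks whether the protein, put back, changes these genes. Its control kidneys are the CD5L KO PBS kidneys of the comparison above, so the fold changes of both are not independent. No member was called (0 of 88; background 0 of 17467, 0%), and DESeq2, which called 0.0438% of all genes, also called none. At an unadjusted p under 0.05 there were 3 members (3.41%), against 2.87% of all genes, namely Hyou1 (0.36 ± 0.12, and 0.24 ± 0.07 without kidneys 3 and 4), Hspb11, an intraflagellar transport protein of the small heat shock family by name (-0.44 ± 0.16), and Hsph1 (0.54 ± 0.22, and 0.33 ± 0.14 without kidney 4). This count moved with single kidneys. It was 6 of 87 (6.90%, against 3.87% of all genes) without rCD5L kidney 1 and 8 of 88 (9.09%, against 5.54% of all genes) without kidney 4. It was 5 of 88 (5.68%) without rCD5L kidney 2 or PBS kidney 4, against 4.66% and 2.07% of all genes. Without PBS kidney 1 or 2 it was 1 of 88 (1.14%), against 1.25% and 1.27%. Without kidneys 3 and 4 together it was 15 of 87 (17.2%), against 9.76% of all genes. In a fit over all 19 kidneys, which again called none, it was 25 of 88 (28.4%), against 12.1% of all genes. For Hyou1 the 5 rCD5L kidneys, at 105, 109, 136, 123 and 96.4 CPM, all lay above the 4 PBS kidneys, which reached 95.3 CPM, but the adjusted p was 0.9. Hspb11 was at 9.61, 10.3, 8.56, 6.82 and 8.31 CPM with rCD5L against 13.0, 11.4, 12.7 and 10.1 with PBS, and 1 treated kidney lay within the PBS range. The biological coefficient of variation of this comparison was 28.8%, against 12.6% between the genotypes under PBS. Across members, 69 of 88 were fitted higher (78.4%, against 53.5% of all genes) with a median of 0.12. Without kidney 4 it was 53 of 88 with a median of 0.04, and without kidneys 3 and 4 together 61 of 87 with a median of 0.06.

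All 9 mitochondrial chaperones were fitted higher with rCD5L in CD5L KO (median 0.24), and this rested on kidney 4. Hspd1 was at 246, 251, 222, 898 and 243 CPM in rCD5L kidneys 1 to 5, and the 4 CD5L KO PBS kidneys were at 216 to 269. Hspa9 was at 382, 347, 370.4, 1039.8 and 376 CPM against 337 to 452. Hspe1 was at 96.7, 105, 133, 251 and 112 CPM against 120.0 to 129.6. In each of the 3 genes kidney 4 was the highest of all 19 kidneys, while the other 4 of its group lay within the PBS range for Hspd1 and Hspa9, and for Hspe1 3 of them lay below it. Without kidney 4 the group median was -0.10, with 2 of 9 higher, and without kidneys 3 and 4 it was -0.13. The proximal tubule markers moved with it, since all 14 were fitted higher with rCD5L (median 1.36). Without kidney 4 it was 9 of 14 (median 0.02), and their summed level was 67687 CPM in kidney 4.

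**Figure D3:**
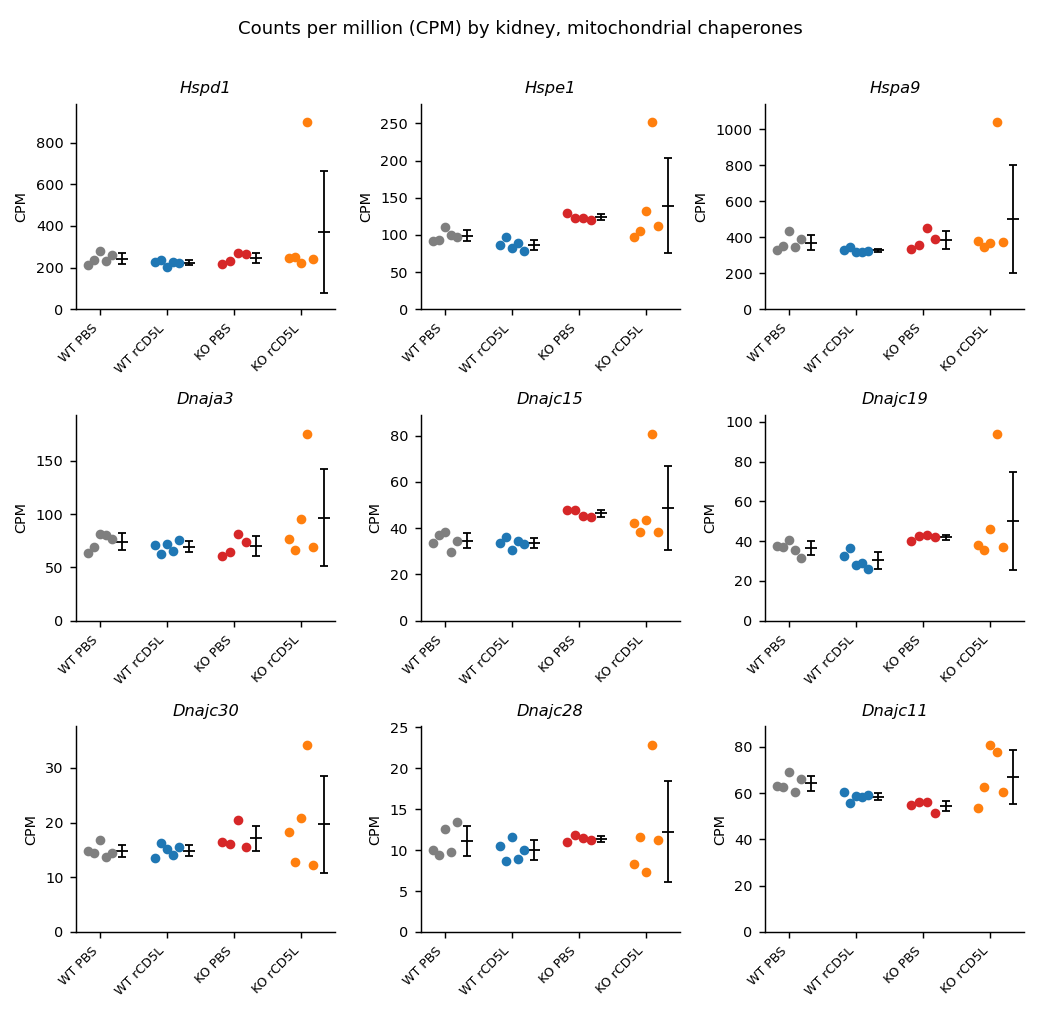
CPM (y axis, from 0) of the 9 mitochondrial chaperones is drawn for every kidney by group (grey WT PBS, blue WT rCD5L, red CD5L KO PBS, orange CD5L KO rCD5L), with the mean and SD as a black bar. For Hspd1 18 kidneys lie between 205 and 279 CPM and kidney 4 of the CD5L KO rCD5L group lies at 898 CPM; Dnajc15, Hspe1 and Dnajc11 are the genes in which the PBS groups are apart.

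Kidney 4 was not high in all members alike. Dnajc12, a J protein that assists phenylalanine hydroxylase, was at 299 CPM there, 10.3 times the median of the 17 other kidneys outside kidneys 3 and 4, Dnajc6, the auxilin of clathrin uncoating, at 36.5 CPM (5.58 times), Dnajc22 at 121 CPM (3.51 times), Herpud1 at 442 CPM (2.17 times) and Hspa8 at 3476 CPM (1.94 times). Hspb1, in contrast, was at 66.3 CPM, 0.348 times that median and below all other kidneys. Kidney 3 showed another pattern, with Hspb1 at 387 CPM (2.03 times), Hspb8 at 69.1 CPM (1.81 times), Hspb6 at 19.3 CPM (2.16 times) and Trib3 at 11.8 CPM (2.31 times), and with Hsp90b1 at 270.4 CPM (0.651 times) and Canx at 320.0 CPM (0.665 times), lower than in every other kidney. Not all small heat shock proteins were high in kidney 3. Hspb2, at 2.69 CPM, and Hspb7, at 7.69 CPM, lay within the range of the other kidneys. The summed level of 8 skeletal and cardiac muscle markers was 51.0 CPM in kidney 3 and 0.994 to 2.73 CPM in the other 18 kidneys, and their part in these values was not tested.

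**Figure D4:**
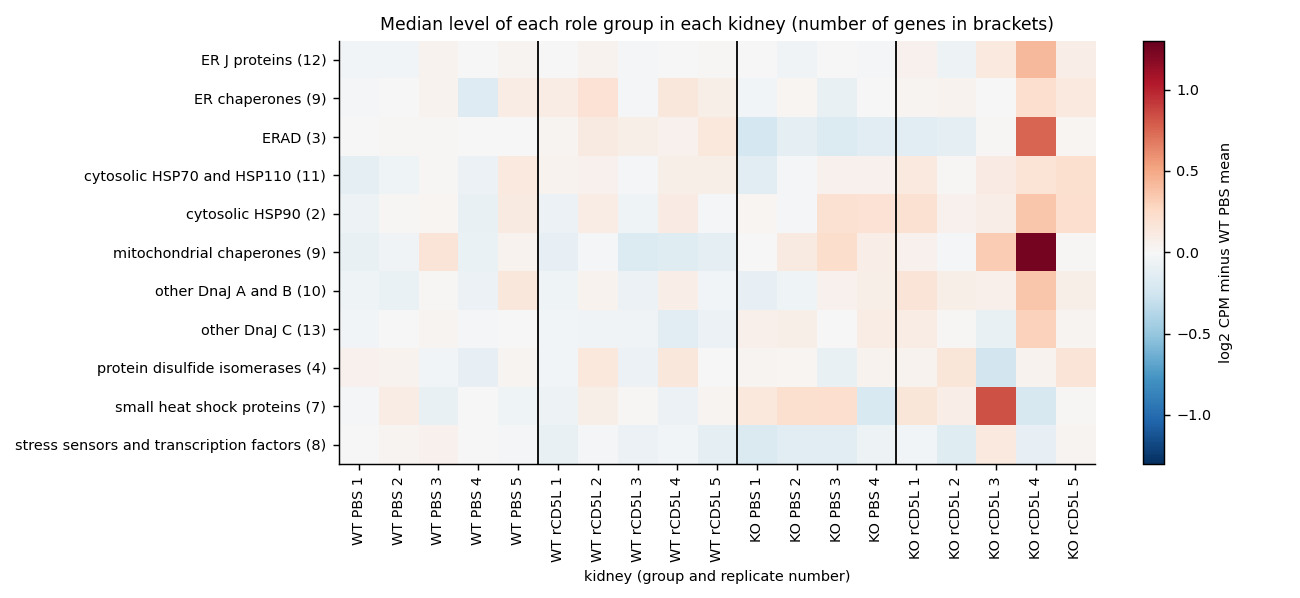
Each cell is the median over the genes of a role, in one kidney, of log2 CPM minus the mean of the WT PBS kidneys (colour scale, log2 units), with kidneys as columns and roles as rows. Kidney 4 of CD5L KO rCD5L stands out in the mitochondrial chaperones, at 1.24, and in the ERAD genes, at 0.76, and kidney 3 in the small heat shock proteins, at 0.82. In the sensors and transcription factors the 4 CD5L KO PBS kidneys are at -0.07 to -0.19. Other groups overlap them there, with -0.16 to 0.13 in CD5L KO rCD5L and -0.11 to -0.01 in WT rCD5L, and the WT PBS kidneys are the baseline.

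**Figure D5:**
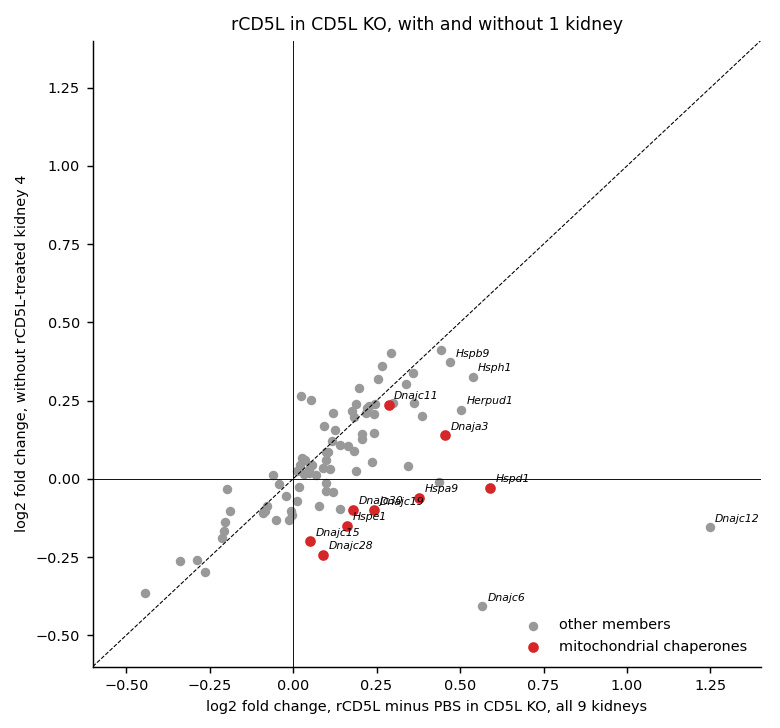
Each point is a member, with its log2 fold change for rCD5L against PBS in CD5L KO over all 9 kidneys (x axis) and without rCD5L-treated kidney 4 (y axis), and the dashed line marks equal values. All 9 mitochondrial chaperones (red; other members grey) lie under the line, as Hspd1 does at 0.59 against -0.03.

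In WT mice, rCD5L gave no call among 87 members (edgeR background 0 of 17455, 0%). The WT PBS kidneys are those of the genotype comparison under PBS, so the fold changes of both are not independent. At an unadjusted p under 0.05 there were 21 members (24.1%), against 16.0% of all genes. With 1 kidney left out at a time there were 14 to 20. There were 14 (16.1%, against 14.0% of all genes) without PBS kidney 3 and 15 (17.2%, against 17.1%) without rCD5L kidney 2. Without PBS kidney 1 there were 20 (23.0%, against 15.2%). In a fit over all 19 kidneys, which also called none, there were 2 of 88 (2.27%), against 3.08% of all genes. Mitochondrial chaperones were fitted lower in 8 of 9 (median -0.13), among them Hspe1, at 86.4, 97.2, 82.5, 88.6 and 79.0 CPM with rCD5L against 92.2, 93.5, 111, 100.1 and 97.5 with PBS (-0.18 ± 0.06, adjusted p = 0.19), and Hspa9 (-0.17 ± 0.07, adjusted p = 0.25). ER chaperones were fitted higher in 8 of 9 (median 0.13), among them Creld2, at 42.7, 40.2, 37.5, 38.3 and 39.3 CPM against 32.5, 36.0, 37.4, 30.9 and 37.0, where the 2 groups did not overlap but nearly met (0.20 ± 0.06, adjusted p = 0.16), and Hyou1 (0.19 ± 0.07, adjusted p = 0.19). DESeq2, which called 3.82% of the genes it tested, called 1 member, Dnaja4, a cytosolic J protein, at 11.3, 10.7, 10.1, 12.0 and 12.4 CPM with rCD5L against 8.62, 8.28, 9.50, 8.10 and 9.58 with PBS (0.36 ± 0.11, adjusted p = 0.027). edgeR gave it 0.37 ± 0.09 with an adjusted p of 0.12. All 5 rCD5L kidneys lay above all 5 PBS kidneys for this gene. None of the proximal tubule markers was fitted higher in these WT mice (0 of 14, median -0.47), while 7 of 7 T cell markers were (median 0.41), and their part in the values was not tested.

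Between CD5L KO and WT, both with rCD5L, no member was called (0 of 87; background 0 of 17360, 0%), and DESeq2, which called 0.434% of all genes, called none. At an unadjusted p under 0.05 there were 10 members (11.5%), against 17.8% of all genes, and the biological coefficient of variation was 27.0%. With 1 kidney left out at a time this count ran from 7 to 20. It was 7 of 88 (7.95%, against 11.2% of all genes) without WT kidney 3 and 15 of 88 (17.0%, against 22.0%) without CD5L KO kidney 2. Without CD5L KO kidney 3 it was 20 of 87 (23.0%, against 20.2%). Without kidneys 3 and 4 together it was 26 of 87 (29.9%), against 21.5% of all genes. A fit over all 19 kidneys called 6 members, all higher in CD5L KO, and 7.00% of all genes. They were Dnajc4, Dnajc12, Dnajc19, Dnajc22, Dnajc15 (adjusted p = 0.048) and Hspe1 (adjusted p = 0.042). At an unadjusted p under 0.05 that fit gave 24 of 88 members (27.3%), against 28.9% of all genes. Kidney 4 was the highest of all 19 kidneys in each of the 6 genes. In the fit of this pair the fold change of Dnajc12 was 1.83, and 0.42 without kidney 4, that of Dnajc22 was 0.86 and 0.40, that of Dnajc19 was 0.69 and 0.34, and that of Dnajc4 was 0.45 and 0.35. Cell type markers moved with this comparison. All 14 proximal tubule markers were fitted higher in CD5L KO (median 1.79), and 12 of 14 without kidney 4 (median 0.36). All 11 distal nephron markers were also fitted higher (median 0.37), and 8 of 11 without kidney 4 (median 0.08). None of the 8 fibroblast and 7 T cell markers was fitted higher (medians -0.40 and -0.34), and without kidney 4 it was 1 of each list (medians -0.24 and -0.11). Their part in these values was not tested. Dnajc15 was at 42.0, 38.5, 43.4, 80.8 and 38.2 CPM in CD5L KO against 33.4, 36.2, 30.4, 34.3 and 33.2 in WT, with no overlap (0.51 ± 0.20, adjusted p = 0.26). Without kidney 4 the fold change was 0.25 ± 0.08. For Dnajc15 the order of genotypes was that seen under PBS, and this comparison shares no kidney with the PBS pair. Other genes called under PBS did not keep their order, as given below. Sel1l was at 113, 114, 115, 126 and 114 CPM against 128, 135, 134, 129 and 136, also with no overlap and lower in CD5L KO as under PBS (-0.21 ± 0.09, adjusted p = 0.26). Without kidneys 3 and 4, chosen after seeing the data, 3 of 87 members were called, against 3.58% of all genes. These were Sel1l (-0.23 ± 0.05, adjusted p = 0.038) and Ern1 (-0.28 ± 0.07, adjusted p = 0.045) lower and Hsp90aa1 (0.29 ± 0.07, adjusted p = 0.048) higher in CD5L KO. In that fit 1 of 7 endothelial markers was fitted higher (median -0.15, 3 called), as were 1 of 8 fibroblast (median -0.40, 1 called) and 0 of 6 podocyte markers (median -0.21). Of the proximal tubule markers, 11 of 14 were fitted higher (median 0.14, 1 called). The part of these cell types in the 3 calls was not tested. Eif2ak3, called lower under PBS, was at 62.8, 59.6, 67.6, 55.1 and 69.3 CPM against 61.8, 68.4, 66.9, 69.8 and 72.4, and its groups overlapped (-0.13 ± 0.09, adjusted p = 0.44, and -0.09 ± 0.08 without kidney 4). Hspe1 was at 96.7 to 251 CPM in CD5L KO against 79.0 to 97.2 in WT (0.66 ± 0.24, adjusted p = 0.26), and without kidney 4 its fold change was 0.34 ± 0.10. Dnajc11, called lower under PBS, was at 53.7 to 80.7 CPM in CD5L KO against 55.8 to 60.3 in WT. It was fitted higher here, as were all 9 mitochondrial chaperones. Herpud1, also called lower under PBS, was at 166 to 442 CPM against 159 to 214, with kidney 4 at 442. Hspa13, called higher under PBS, was at 40.4 to 62.3 CPM against 54.9 to 66.3.

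The interaction, the effect of rCD5L in CD5L KO minus that in WT over all 19 kidneys, was called for no member (0 of 88; background 0 of 18454, 0%). At an unadjusted p under 0.05 there were 7 members (7.95%), against 6.25% of all genes, with Dnajc11 (0.43 ± 0.13) and Herpud1 (0.72 ± 0.29) the first by p and an adjusted p of 0.73 for both. With 1 kidney left out at a time this count ran from 2 (2.27%, against 3.50% of all genes, without CD5L KO PBS kidney 1) to 18 (20.5%, against 11.8%, without CD5L KO rCD5L kidney 2). It was 13 (14.8%, against 10.1%) without CD5L KO rCD5L kidney 5. Without WT PBS kidney 2, WT rCD5L kidney 1 or WT rCD5L kidney 5 it was 4 (4.55%), against 5.28%, 4.84% and 4.97% of all genes. Without kidney 4 the value of Herpud1 was 0.42 ± 0.19 and that of Dnajc11 0.36 ± 0.12, and without kidneys 3 and 4 they were 0.36 ± 0.19 and 0.25 ± 0.08. Dnajc11 ran from 51.3 to 56.1 CPM in CD5L KO PBS, from 55.8 to 60.3 in WT rCD5L, from 60.5 to 68.9 in WT PBS and from 53.7 to 80.7 in CD5L KO rCD5L, a group that overlapped each of the others. All 9 mitochondrial chaperones had a value above 0 (median 0.43), and without kidney 4 it was 6 of 9 (median 0.09). Tubule and T cell markers moved with it. All 14 proximal tubule markers had a value above 0 (median 1.88), 12 of 14 without kidney 4 (median 0.34), as did 10 of 11 markers of the distal nephron (median 0.46), which were 7 of 11 without kidney 4 (median 0.10). None of the 7 T cell markers had one (median -0.49), and 1 of 7 did without kidney 4 (median -0.33). Their part in these values was not tested. For the sensors and transcription factors 7 of 8 were above 0 (median 0.20), where 53.0% of all genes were. The interaction takes in the PBS difference between genotypes with its sign reversed. All 8 were fitted below 0 in that difference, so their values above 0 are in part built in. The same holds for Dnajc11 and Herpud1, called lower under PBS.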

How the data were processed

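The authors sequenced total RNA of 19 obstructed kidneys (random hexamer priming, paired-end reads), and per the labels trimmed reads with Trimmomatic, aligned them with HISAT2 to GRCm38 (mm10) and counted them per gene with featureCounts; versions, strand setting and the handling of reads with several matches are not given in the sources used here. The deposited table holds raw counts and, beside them, the authors' FPKM values, which were used for levels between genes and in 2 alternatives. Counts were scaled by TMM and tested with edgeR 4.0.16 in R 4.3.3 (filterByExpr, minimum count 10, quasi-likelihood F test), 2 groups per fit, and for the interaction with all 19 kidneys; p-values were adjusted by Benjamini-Hochberg over all genes tested. DESeq2 1.42.0, limma 3.58.1 on log2(FPKM + 1) and log2(FPKM + 0.1), and the other alternatives of the closing section were set against it; DESeq2 and limma bring their own scaling or filter, and each of the rest changed 1 choice. The depth of 17917491 to 23847090 counts limits the genes with few counts. The genes named were the members called in a pairwise comparison (at most 12 per direction by fold change), 32 fixed members, of each pathway list the called genes outside the rule (at most 3 per direction), and the members at both ends of the level scale; any other gene named was chosen after its values were seen. Members and lists were chosen with earlier results of these data known. The fits were also run on simulated counts, and the outcome is not given here. Promoters came from RefSeq (GRCm38.p6). The mice were treated in alternating order without formal randomization.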

Additional observations from a re-analysis of the deposited data

Results flagged for a closer look

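Among 37 named genes in 4 groups, 15 of 148 values at the edge of a group lay farther from their nearest neighbour than Dixon's limit for the group's size allows, where chance gives about 1 in 20 groups. The 37 genes share the same 19 kidneys, so the 148 are not independent and the count does not measure an excess over chance. Of the 15, 5 came from kidney 4 of CD5L KO rCD5L, the kidney with the high proximal tubule genes. They were the highest values of the group for Dnajc15 (80.8 CPM), Hspa8 (3476 CPM), Hspa9 (1040 CPM), Hspd1 (898 CPM) and Sel1l (126 CPM). Another 4 came from kidney 3 of the same group, the kidney with the high ribosomal RNA rows, where Hsp90b1 (270 CPM), Hspa13 (40.4 CPM) and Pdia3 (504 CPM) were the lowest and Trib3 (11.8 CPM) the highest.

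In the CD5L KO PBS group, kidney 3 was the lowest for the ER genes Hspa5 (473 CPM) and Pdia4 (134 CPM), kidney 4 was the highest for Dnajb1 (65.1 CPM) and the lowest for Trib3 (4.13 CPM), and kidney 1 was the lowest for Hspa8 (1606 CPM). In the WT PBS group, kidney 4 was the lowest for Manf (65.5 CPM). None of the 15 came from the WT rCD5L group. The causes were not tested.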

How the results depend on the processing

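Between CD5L KO and WT under PBS 13 members were called. Leaving out 1 kidney at a time gave from 6 to 12 calls, of which 6 to 11 were among the 13, with 6 each without CD5L KO kidney 1, WT kidney 2 or WT kidney 4, and 8 each without CD5L KO kidney 3 or 4. All 19 kidneys in 1 fit gave 0 calls (0.0650% of all genes) and an offset for gene length 7 (6.88% of all genes), and the cause was not tested. DESeq2 called 18, all 13 among them, and 16.9% of all genes. RLE factors gave 13 calls, no filter on low counts 10, and limma on FPKM 9 with either pseudocount. Over the 17 alternatives Dnajb5, Dnajc15 and Eif2ak3 were called in 16, Hspe1 in 15, Dnajc11 in 14, Pdia6 in 13, Hsp90aa1 in 11, Sel1l in 10, Herpud1 and Hsf1 in 8, Hyou1 in 6 and Hspa13 and Hspb1 in 5 each, always with the same sign. Under rCD5L, DESeq2 called 1 member in WT (Dnaja4). Between genotypes with rCD5L, all 19 kidneys in 1 fit gave 6 calls of 88 (6.82%), against 7.00% of all genes, with Dnajc15 and Hspe1 among them. Leaving out kidneys 3 and 4 together, a choice made after seeing the data, gave 3 of 87 (3.45%), against 3.58%. Leaving out 1 kidney left 0 calls (from 0 to 0) in each of the other 4 comparisons. Between genotypes with rCD5L the fold changes of Hspe1 and Dnajc15, and in the interaction that of Herpud1, fell by over 1.5 times without kidney 4.

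Same-numbered kidneys correlated at -0.19 to 0.17 in their deviations from the group means. For rCD5L against PBS in CD5L KO the values were 0.17, 0.10, 0.14 and 0.02 for numbers 1 to 4. With so few kidneys this cannot show whether the replicate numbers paired them. The fit with the replicate number as a block called 13 between genotypes under PBS, losing Hsf1 and Hspb1 and gaining Dnajc22 and Pdia5, and 0 in each other comparison. Of 2664 refits of named genes, 78 lost the call, 8 passed the threshold newly, 0 called values reversed and the remaining 2578 kept their side of the threshold. In 151 of the 2578 the sign differed, with neither value called.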
